A study of Mus musculus with 16 samples.

Results

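The regions described here were the constitutive promoter DHS of protein-coding genes in mouse liver. They were the DNase-I hypersensitive sites (DHS, stretches of chromatin that the nuclease DNase I cuts readily) that were found in males and females of both strains studied, C57BL/6J (B6) and CAST/EiJ (CAST), and that lay at the start of a protein-coding gene. The peaks of the 4 deposited lists on chromosomes 1 to 19 were joined where they overlapped by at least 1 bp, which gave 50655 regions. A region was a member when it held a peak of each list and its edge was at most 2.5 kb from a transcription start site (TSS) of a protein-coding gene. There were 9529 members, which were 18.8% of all regions and 52.9% (Wilson interval 52.2 to 53.7) of the 17999 regions found in all 4 lists. The other 8470 regions found in all 4 lists lay more than 2500 bp from each protein-coding TSS, and they are called distal regions below.

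DNase-seq was performed on liver nuclei of mice that were 8 weeks old, with 32 units of DNase I. The 16 libraries fell into 4 groups of 4, namely Male_B6, Female_B6, Male_CAST and Female_CAST, with no treatment or engineered allele in any group. B6 is the strain of the mouse reference genome, whereas CAST is an inbred strain derived from a different mouse subspecies. Each group was represented by 1 peak list, called on its 4 pooled libraries, so there was 1 value per group, no spread between replicates, and no test of any difference. Because presence in all 4 lists chose the members, the strength of the members is given as a description, and a promoter that was closed in 1 group could not be a member.

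Promoters of active genes are kept free of nucleosomes, which lets transcription factors and RNA polymerase II reach the DNA, and this is why they appear as DHS. Most promoters of broadly used genes lie in CpG islands, which are GC-rich stretches that have kept their CpG dinucleotides, and they tend to hold sites for SP, ETS, NRF1 and NF-Y factors. Many promoters of tissue-specific genes lack a CpG island, and some place a TATA box a short distance before the TSS. In liver, hepatocytes are the major cell type, and factors such as HNF4A, FOXA2 and the C/EBP proteins maintain their gene program.

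The promoter sequences of 7 members that stand for different roles are shown so that promoters with and without a CpG island can be compared. Each is the 150 bases before the TSS in mm9 (the B6 reference), read 5′ to 3′ on the strand of the gene, and capitals mark a match to one of the 13 motifs searched. Alb (chr5:90889765-90889914, plus strand) encodes albumin, Cebpa (chr7:35904162-35904311, plus strand) encodes the transcription factor C/EBPα, and Abcb11 (chr2:69180672-69180821, minus strand) encodes the bile salt export pump of hepatocytes. Rplp0 (chr5:116009326-116009475, plus strand) encodes a ribosomal stalk protein, Polr2a (chr11:69572140-69572289, minus strand) the largest subunit of RNA polymerase II, Actb (chr5:143667617-143667766, minus strand) cytoplasmic β-actin, and Ndufa4 (chr6:11857447-11857596, minus strand) a protein of the mitochondrial respiratory chain.
Alb: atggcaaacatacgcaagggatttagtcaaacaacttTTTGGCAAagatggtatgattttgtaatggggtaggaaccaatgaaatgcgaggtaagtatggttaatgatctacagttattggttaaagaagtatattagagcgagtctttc
Cebpa: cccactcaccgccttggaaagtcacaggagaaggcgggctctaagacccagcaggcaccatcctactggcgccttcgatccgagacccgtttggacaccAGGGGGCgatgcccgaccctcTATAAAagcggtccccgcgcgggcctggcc
Abcb11: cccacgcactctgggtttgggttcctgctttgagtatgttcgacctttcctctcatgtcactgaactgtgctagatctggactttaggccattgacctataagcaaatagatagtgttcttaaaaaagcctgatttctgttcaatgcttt
Rplp0: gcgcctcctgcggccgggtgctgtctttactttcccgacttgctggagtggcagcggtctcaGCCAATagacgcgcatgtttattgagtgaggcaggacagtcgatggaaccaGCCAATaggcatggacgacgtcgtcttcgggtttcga
Polr2a: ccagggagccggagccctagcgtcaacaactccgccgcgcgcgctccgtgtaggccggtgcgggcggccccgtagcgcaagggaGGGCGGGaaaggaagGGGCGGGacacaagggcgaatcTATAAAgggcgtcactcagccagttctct
Actb: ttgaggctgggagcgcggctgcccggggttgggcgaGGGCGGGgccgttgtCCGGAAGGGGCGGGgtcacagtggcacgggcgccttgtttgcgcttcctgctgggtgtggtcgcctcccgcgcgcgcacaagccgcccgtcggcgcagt
Ndufa4: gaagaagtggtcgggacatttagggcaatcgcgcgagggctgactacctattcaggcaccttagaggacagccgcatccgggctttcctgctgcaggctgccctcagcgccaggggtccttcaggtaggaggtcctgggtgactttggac

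The Alb stretch had a GC content of 36.0% and 3 CpG dinucleotides, with 1 C/EBP match that began 113 bases before the TSS. The Abcb11 stretch was similar in composition, with a GC content of 42.7% and 2 CpG dinucleotides, and it held no match. In contrast, the Actb stretch had a GC content of 74.7% and 20 CpG dinucleotides, with 2 GC boxes and 1 ETS match. The Polr2a stretch had 17 CpG dinucleotides, 2 GC boxes and a TATAAA that began 29 bases before the TSS. The Cebpa stretch combined 12 CpG dinucleotides with a TATAAA 30 bases before the TSS, and the Rplp0 stretch held 2 CCAAT boxes. A match is a description of letters in the reference, not a bound site, and the CAST sequence was not used.

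Members were centered on start sites more closely than the rule required. Of the 9529 members, 8191 (86.0%, 85.2 to 86.6) overlapped a TSS, 284 lay 1 to 500 bp away, 334 lay 501 to 1000 bp away and 720 lay 1001 to 2500 bp away. The summit, taken as the median of the summit positions of the 4 lists, was within 100 bp of the nearest TSS in 44.9% of members and within 200 bp in 71.8%. Its median position was 3 bp upstream, with quartiles at 139 bp upstream and 93 bp downstream. In each list the positions, counted in bins of 25 bp, were highest just after the TSS, with a smaller rise upstream. The downstream peak was 0 to 25 bp after the TSS in each list. The fullest bin at least 75 bp upstream fell between 150 and 75 bp before it. That bin held 436 members in Male_B6, 407 in Female_B6, 401 in Male_CAST and 429 in Female_CAST. The lowest bin between it and the TSS held 380, 365, 357 and 353 in the same order. In Female_B6 the upstream bin was at the edge of the range searched, and whether the dip exceeds counting error was not tested. Summits lay outside genes in 35.6% of members, in a 5′ UTR in 28.2%, in an intron in 22.9%, in a coding exon in 11% and in a 3′ UTR in 0.525%.

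**Figure D1:**
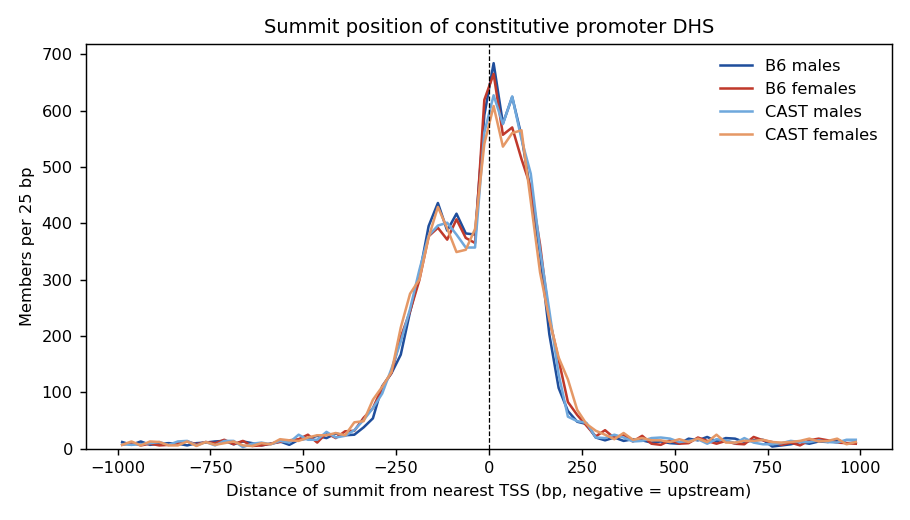
Number of members per 25 bp (vertical axis) by the distance in bp of the peak summit from the nearest TSS (horizontal axis, negative values upstream), with 1 line for each of the 4 lists. Each line has a maximum at 0 to 25 bp downstream. Its fullest bin at least 75 bp upstream, which is lower, lies between 150 and 75 bp upstream.

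The position of the summit varied between the lists. The 4 summits spanned a median of 85 bp in members and 97 bp in distal regions, and 25.3% of members (24.5 to 26.2) against 19.9% of distal regions (19.1 to 20.8) had all 4 within 50 bp. A single peak in each list made up 8942 of the members. Members were wider than distal regions, with a median width of 994 bp against 842 bp.

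Of 21418 protein-coding genes, 9640 (45.0%) had a member within the limit. Another 2814 genes had a DHS in 1 to 3 lists only, and 8964 had none. A single member served 8451 of the 9640 genes, 1023 genes had 2 members and 166 had 3 or more. Conversely, 1454 members (15.3%, 14.6 to 16) were within the limit of more than 1 gene, so that such a member could not be assigned to a single gene. Of these, 904 lay between the TSSs of 2 genes that point away from each other within 1000 bp. These divergent promoters were CpG-rich (defined below) in 93.1% of cases, against 81.3% of the other members that overlapped a TSS, and their median fold enrichment in Male_B6 was 7.32, against 5.98.

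The strength of a DHS was taken as its fold enrichment, the number of fragments over the summit divided by the number expected from the local background. Members exceeded distal regions in median fold enrichment in each list, although both sets were present in all 4. Sets of 4 values are given hereafter in the order Male_B6, Female_B6, Male_CAST and Female_CAST. The medians were 5.82, 4.30, 6.08 and 4.97 for members, and 4.88, 3.49, 5.52 and 4.37 for distal regions. Among the 10% of autosomal regions with the highest fold enrichment in each list, members made up 63.3%, 70.3%, 57.4% and 61.5%. The most extreme single values were distal, with a highest fold enrichment of 40.5 in Male_B6 against 26.6 among members. Members that overlapped a TSS were stronger than those 1 to 2500 bp away, with medians of 6.10 and 4.32 in Male_B6.

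**Figure D2:**
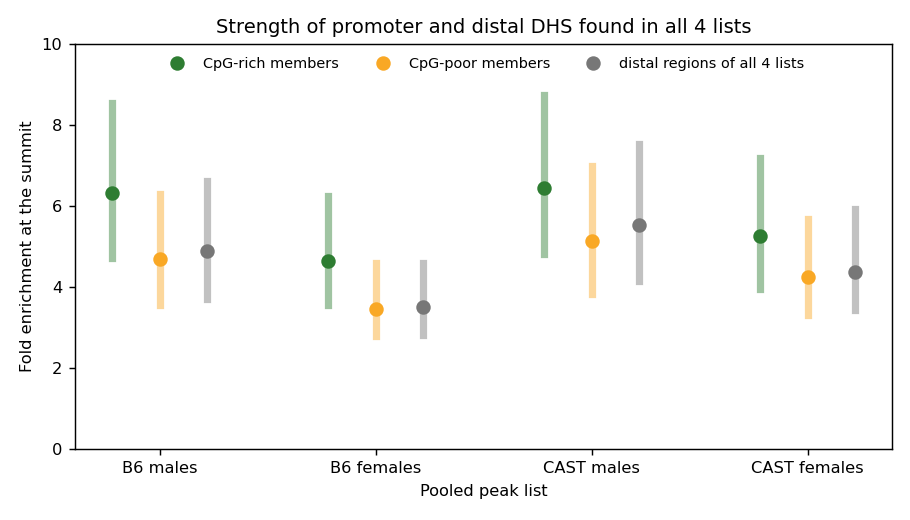
Fold enrichment at the summit (vertical axis, linear from 0) in each pooled list (horizontal axis) for CpG-rich members, CpG-poor members and distal regions found in all 4 lists. Points are medians and bars run from the lower to the upper quartile; in each list the CpG-rich members are highest, with a median of 6.31 in Male_B6 against 4.69 for CpG-poor members and 4.88 for distal regions.

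The order of the members by strength was alike in the 4 lists. Spearman's rank correlation of fold enrichment across members, which are not independent replicates, was 0.93 between the sexes in B6 and 0.91 in CAST, and 0.90 between the strains in males and 0.86 in females. The same values across distal regions were 0.85, 0.85, 0.77 and 0.70. The lists differed in depth, since the genome-wide background, recovered from the deposited values in units of overlapping fragments, was 15.4, 13.9, 14.3 and 7.94. The median number of fragments over the summit of a member was 167, 87, 159 and 62. The lower level of the female lists, and of Female_CAST in particular, limits the precision of each difference below that uses a female list, and the difference between strains in males had the smallest counting error. Intervals cover counting error only, because reads without molecular identifiers are not independent molecules.

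The 10 strongest members, ranked by their lowest percentile over the 4 lists, included 9 that were CpG-rich, as defined below. Clcn4-2, which encodes a chloride and proton exchanger, had fold enrichments of 19.4, 15.98, 19.4 and 16.98 (chr7:7250928-7252510). The zinc finger gene Zfp868 had 20.01, 14.99, 19.9 and 17.4 (chr8:72148824-72149788). These values lay within a narrow range, and the centred log2 ratios of both members were between −0.14 and 0.16 in each contrast of sex and strain. Some of the 10 lay near more than 1 gene. The promoter between Prkdc, the catalytic subunit of the DNA repair kinase DNA-PK, and Mcm4, a subunit of the replicative helicase, had 16.7, 14.4, 18.6 and 16.3 (chr16:15637255-15638210). That of Ndufa4 and Phf14 had 17.5, 14.2, 17.5 and 16.3 (chr6:11857177-11858086). The remaining genes were 2010109A12Rik with Ccni, A230051G13Rik, Pip4k2b with Gm17413, Zfp511 with Tubgcp2, and Leng8. The first of the 10 differed from the rest. Gm10800 (chr2:98506409-98507468) had 26.6, 26.1, 25.7 and 25.5, from a summit pileup of 50138 to 92599 fragments and a local background 219 times the genome-wide one, and it was not CpG-rich, with a GC content of 35.2%.

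Members with such a background were few. In 23 of 9529 members the local background was over 10 times the genome-wide one in all 4 lists, and in 14 members the 500 bp around the summit had a further match in mm9, which together came to 34 members. Of these, 17 were the members at Sfi1, which encodes a centrin-binding protein, and they spread over chr11:3033345-3096964 with a local background 10.7 to 38.2 times the genome-wide one. Sfi1 also held the widest member, of 5817 bp. The next widest were at Ugt1a1 (3595 bp), the enzyme that conjugates bilirubin, Igf2bp3 (3225 bp), Arhgef12 (2995 bp) and Nr3c1 (2933 bp), the glucocorticoid receptor. Reads of repeated sequence cannot be placed with confidence, so the values of the 14 members with a further match are uncertain. For the others of the 34, the cause of the high background was not tested, and their values are uncertain too.

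Sequence separated the members from the distal regions more clearly than strength did. A member was called CpG-rich when the 500 bp around its summit had a GC content over 50% and a ratio of observed to expected CpG dinucleotides over 0.6. This held for 7019 members, or 73.7% (72.8 to 74.5), and for 4.81% (4.37 to 5.28) of distal regions. Among promoter regions found in only 1 to 3 lists the share was 29.8% (28.7 to 30.9), and among the TSSs of the 8964 genes with no DHS it was 15.7% (15 to 16.5). The median GC content was 63.0% in members and 47.8% in distal regions, and the median CpG ratio was 0.79 and 0.23. Proximity to a TSS is part of the rule, and CpG islands lie at start sites, so a difference of this kind follows in part from how the members were chosen.

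CpG-rich and CpG-poor members differed in shape as well. A TSS was overlapped by 96.4% of the 7019 CpG-rich members and by 56.8% of the 2510 CpG-poor ones, and the summit was within 200 bp of the TSS in 83.9% and 38.2%. CpG-rich members were also the stronger ones in each list, with median fold enrichments of 6.31, 4.63, 6.44 and 5.25 against 4.69, 3.45, 5.14 and 4.25. Among members that overlapped a TSS, the CpG-poor ones reached 5.05, 3.75, 5.45 and 4.49. The medians of all CpG-poor members were close to those of the distal regions in each list.

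Motifs were counted in the 300 bp around the summit on both strands, as exact matches in which N is any base. The letters were GGGCGGG for the GC box of SP and KLF factors, CCGGAAG for ETS factors, GCGCANGCG for NRF1, GCCAAT for NF-Y, AAGATGGC for YY1, TGACGTCA for CREB and ATF factors, CACGTG for the E-box, AGGGGGC for the core of the CTCF motif and TATAAA for the TATA box. For factors of liver or of hormone response they were CAAAGTCCA for HNF4A, TTGCNNAA for C/EBP, TGTTTAC for FOXA and TTCNNNGAA for STAT. Motifs of different names were counted independently, also where they overlapped.

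Motifs common in CpG-rich promoters were more frequent in members, whereas those of liver factors, and also TATAAA, were more frequent in distal regions. A GC box was found in 43.1% of members (42.1 to 44.1) and in 5.77% of distal regions (5.30 to 6.29). An ETS match was found in 17.2% and 2.48%, an NRF1 match in 14.2% and 0.98%, a YY1 match in 4.94% and 1.38%, and a CREB match in 3.04% and 0.72%. The CTCF core was found in 13.3% and 3.78%. The E-box and the CCAAT box of NF-Y differed less, with 10.6% and 7.71% for the former and 17.5% and 13.97% for the latter. For comparison, GC boxes were found at 15.1% of the TSSs with no DHS, ETS matches at 3.03% and NRF1 matches at 1.72%. In contrast, a C/EBP match was found in 9.15% of members and 23.8% of distal regions, a FOXA match in 3.25% and 9.19%, and an HNF4A match in 0.89% and 2.62%. The STAT match was found in 6.06% and 11.8%, and TATAAA in 4.87% and 12.5%. The sets differ in base composition, which alone changes how often GC-rich or AT-rich letters occur.

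The position of the matches was compared within the same regions, and base composition also changes with the distance from a summit, so its part in these ratios was not tested. In members, the number of matches within 100 bp of the summit was 12.7 times the number 400 to 500 bp away, over the same length of sequence, for NRF1, 9.69 times for CREB, 5.79 times for ETS, 3.75 times for the GC box and 3.04 times for NF-Y. The same 5 motifs were also gathered at the summits of distal regions, where they were rarer, with ratios of 8.22 (74 matches against 9), 5.57 (39 against 7), 1.93, 2.52 and 1.81. C/EBP matches were not gathered at the summits of members, with a ratio of 0.91, whereas the ratio was 2.18 in distal regions. The ratio for FOXA was 0.96 in members and 2.18 in distal regions, and for HNF4A it was 2.19 and 5.92. TATAAA was rarer near the summit than away from it in both sets, with ratios of 0.43 and 0.65.

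**Figure D3:**
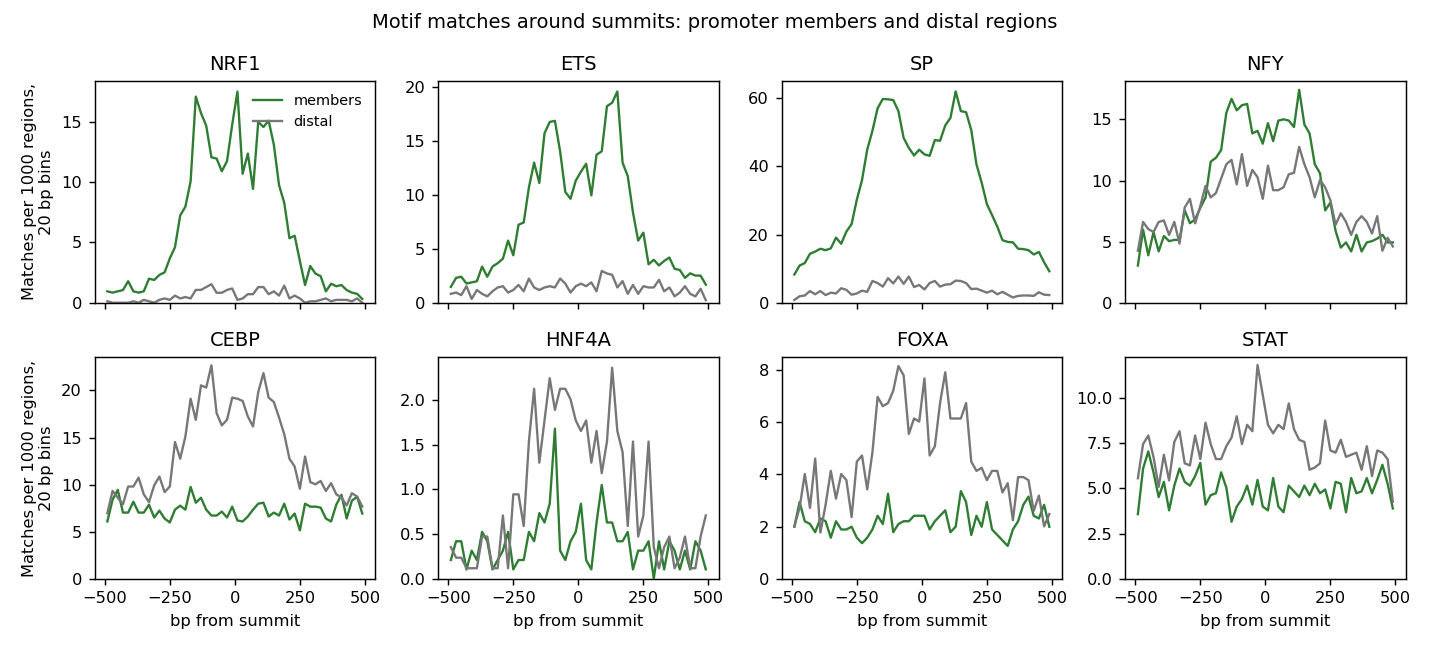
Motif matches per 1000 regions in 20 bp bins (vertical axes, linear from 0) by distance in bp from the summit (horizontal axes), 1 panel per motif, with 1 line for members and 1 for distal regions. Matches of NRF1 and ETS rise at the summit in members, where the centre holds 12.7 and 5.79 times the matches of the flanks (8.22 and 1.93 times in distal regions), while those of C/EBP rise in distal regions only, by 2.18 times.

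A TATA box at the usual place was rare. TATAAA on the gene's strand between 40 and 20 bp before the TSS was found in 0.71% of CpG-rich members and 1.83% of CpG-poor members, and at 4.23% of the TSSs with no DHS. The TSS was the one nearest the summit for members, also where they did not overlap it, and the 5′-most one for genes with no DHS. These shares therefore rest on unlike choices of TSS. Polr2a and Cebpa, shown above, belonged to the small group that combined it with a CpG-rich window.

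Genes of the general cell machinery nearly all had a member. Of 233 genes in 6 lists of basic functions, 218 (93.6%, 89.7 to 96.1) had one, against 45.0% of all protein-coding genes. They were 67 of 72 ribosomal protein genes, 34 of 38 proteasome genes, 34 of 34 complex I genes, 19 of 20 cytosolic tRNA synthetase genes, 33 of 37 genes of RNA polymerase II and its general factors, and 31 of 32 splicing factor genes. Of the 15 without a member, 12 had a DHS in 1 to 3 lists. The 3 with no DHS at all were Psma8, Psmb11 and Srsf12, and the first 2 are proteasome subunits known to serve the testis and the thymus.

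Within these lists the strength of the promoters ranged widely. The strongest of the ribosomal protein genes was Rps27a, which encodes a fusion of ubiquitin and a ribosomal protein, with 16.2, 12.6, 17.2 and 13.7, and the next was Rpl21 with 13.8, 10.8, 15.8 and 12.6. The weakest was the member assigned to Rpl35, with 3.73, 3.11, 3.27 and 2.77, whose edge was 2119 bp from the TSS of Rpl35 and which lay nearest to another gene, Arpc5l. Polr2b, the second-largest subunit of RNA polymerase II, had 17.1, 13.03, 17.5 and 15.01, whereas Polr2g, another subunit, had 4.16, 2.76, 4.44 and 3.09. In Male_B6 the first lay above the value that 90% of members stayed under (10.4) and the second below the lower quartile of members (4.32). The splicing factor gene Srsf1 had 14.8, 12.4, 14.7 and 13.9, and Farsb, a subunit of the phenylalanine tRNA synthetase, had 16.04, 11.2, 15.6 and 14.1. Some strong promoters were shared. The member of the complex I gene Ndufs1, with 14.1, 10.6, 14.8 and 13.4, was also that of the translation factor gene Eef1b2, and the member of the TFIIH gene Gtf2h1, with 14.8, 11.6, 16.1 and 14.6, was also that of Hps5.

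Genes that define the hepatocyte also had members, but weaker ones that were mostly poor in CpG. Members were found for 18 of 19 hepatocyte transcription factor genes, 27 of 28 plasma protein genes and 25 of 25 genes of metabolic enzymes and transporters. Prox1 and Kng1 had a DHS in 1 to 3 lists. The median percentile of their members, among all members ranked by mean fold enrichment, was 42.8 for transcription factors, 35.4 for plasma proteins and 34.1 for metabolic genes. In the lists of general machinery it was 58.9 for ribosomal proteins, 56.7 for the proteasome, 63.8 for complex I and 50.8 for tRNA synthetases. For RNA polymerase II and its general factors it was 61.5, and for splicing factors 64.6. Of the members that overlapped a TSS, 2 of 25 at plasma protein genes and 3 of 26 at metabolic genes were CpG-rich, against 63 of 68 at ribosomal protein genes. The hepatocyte transcription factors stood between, with 9 of 21.

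Individual liver genes departed from this order. Abcb11, the bile salt export pump shown above, had the strongest promoter of the metabolic genes, with 15.8, 11.4, 17.3 and 15.3, and it was followed by Fah, an enzyme of tyrosine breakdown, with 8.13, 6.33, 8.34 and 9.03. The weakest was Cyp8b1, which acts in the synthesis of cholic acid, with 3.69, 2.67, 2.79 and 2.37. Alb had 5.16, 4.48, 4.84 and 3.69 (chr5:90889452-90890200), which was above the median of all members in Female_B6 and below it in the other lists. The nuclear receptor genes Nr0b2, with 8.60, 7.04, 7.66 and 8.72, and Nr5a2, with 9.41, 7.0, 8.67 and 6.69, had the strongest members of the liver transcription factors. Foxa1 had the weakest of that list, with 2.11, 2.32, 2.74 and 2.89. Among plasma proteins, Itih1 and Fetub were the strongest and Fgb, a fibrinogen chain, the weakest, with 2.73, 2.24, 3.21 and 2.88.

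Some of the liver regulators had more than 1 member. Hnf4a had 2, one at a TSS with 5.63, 3.64, 7.21 and 5.51 (chr2:163372499-163373171) and one 2137 bp from another TSS with 6.73, 4.93, 6.53 and 4.94 (chr2:163364892-163365671). Cebpa had its main member over the TSS, with 4.82, 3.68, 4.28 and 4.07 (chr7:35903637-35904636), and a weaker one 2040 bp upstream, with 2.78, 2.19, 3.35 and 3.23 (chr7:35901430-35902272). Foxa2 had 5.79, 4.09, 5.30 and 4.61. The member of Apoa1, the main protein of high-density lipoprotein, did not overlap its TSS but lay 1111 bp downstream, with 2.30, 2.97, 3.45 and 4.06 (chr9:46037915-46039477). For Gapdh, Rplp0, Actb and Polr2a the fold enrichments in Male_B6 were 5.73, 5.86, 8.50 and 10.98.

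Markers of the other cell types of liver, and of other tissues, seldom had a member. For the 51 markers of other liver cells the count was 4 (7.84%, 3.09 to 18.5), and for 1428 genes of other tissues it was 4 (0.28%, 0.11 to 0.72), both below the 45.0% of all genes. No member was found for 11 Kupffer cell markers, 11 stellate cell markers or 9 lymphocyte markers. For sinusoidal endothelium, Stab2, with 6.39, 4.68, 8.13 and 5.45, and Oit3, with 4.09, 3.67, 3.78 and 3.59, had members, and the other 10 of 12 markers each had a DHS in 1 to 3 lists. Of the 8 bile duct markers, 2 had a member, 1 had a DHS in 1 to 3 lists and 5 had none. Sox9 was among those with a member, with 3.90, 3.13, 4.63 and 3.34. In whole liver, fewer cells of a type and less opening per cell cannot be told apart.

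Of the olfactory receptor genes 1 of 1081 had a member, of the vomeronasal receptor genes 0 of 318, and of the neuronal genes 0 of 11. The member at Olfr1442 lay 2306 bp from its TSS. The member counted for Mylpf, a myosin light chain of skeletal muscle, was 2198 bp from its TSS and nearest to Tbc1d10b, with 10.3, 7.33, 9.15 and 8.79. Of 9 germ cell genes, Gdf9, with 10.4, 8.85, 10.3 and 8.69, and Dazl, with 4.31, 2.85, 4.78 and 3.78, had CpG-rich members over their TSSs.

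**Figure D4:**
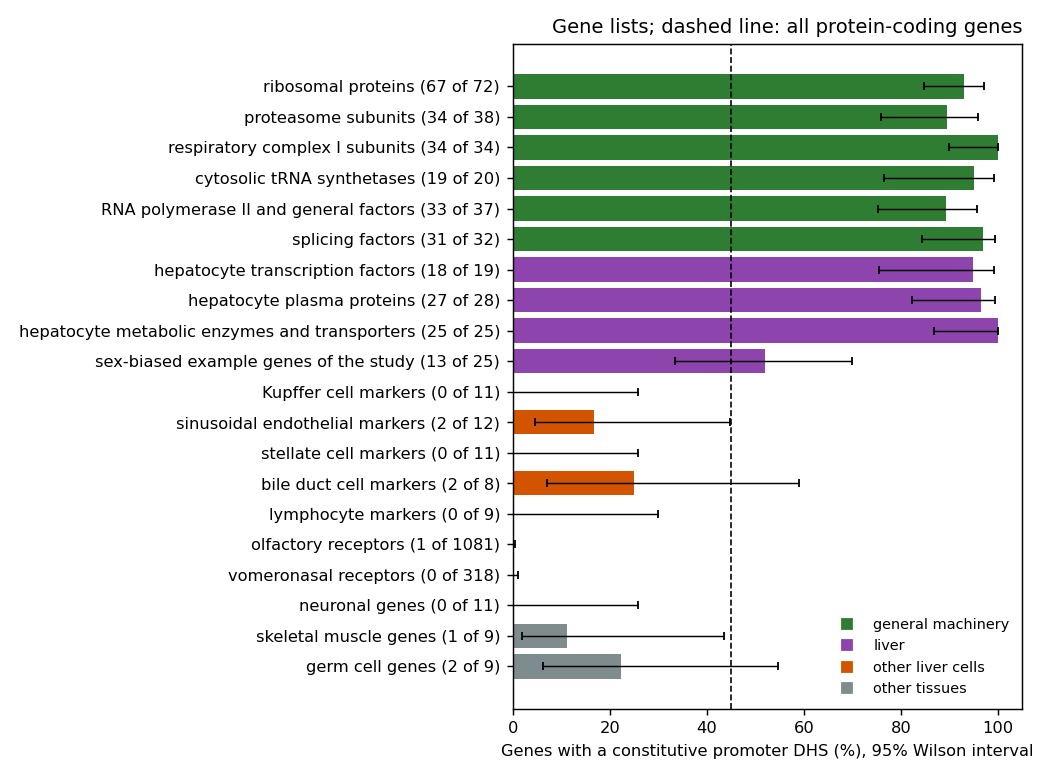
Percent of the genes of each list that had a constitutive promoter DHS (horizontal axis), with 95% Wilson intervals as bars and colors for the 4 classes of lists. The dashed line marks the 45.0% of all protein-coding genes. The lists of general machinery, at 89.2% or more, and of hepatocyte genes, at 94.7% or more, lie above it. The lists of other cells and tissues, at 25% or less, have shares below it. However, the intervals of the bile duct markers (7.15 to 59.1) and of the germ cell genes (6.32 to 54.7) include it. The interval of the sex-biased examples, at 52.0% (33.5 to 70.0), includes it too.

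Differences between males and females were examined in B6 and in CAST. The log2 ratio of fold enrichment was centered on its median over all regions in all 4 lists, and a region counted as different when it was past 1.5-fold. Most members were alike by this measure, with 98.0% of them within the limit in B6 and 97.4% in CAST. In B6, 78 members were higher in males (0.82%, against 2.04% of all regions in all 4 lists) and 111 were higher in females (1.16%, against 1.74%). In CAST, the counts were 137 (1.44%, against 2.61%) and 113 (1.19%, against 1.51%). The standard deviation of the ratio over members was 0.24 in B6, and counting error alone gives 0.19. In CAST these values were 0.25 and 0.22. The counting error assumes independent reads, and with no replicates its part in the spread between the sexes was not tested.

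Only 18 members were past the limit in the same direction in both strains, 9 in each direction, and none was past it in opposite directions. The 9 higher in males were 0.09% of members, against 0.333% of all regions in all 4 lists, and the 9 higher in females were 0.09%, against 0.111%. None of the 18 had fragments that summed to 300 over the male and female list in both strains. The count depended on the measure. With the excess of the summit pileup over background in place of fold enrichment, 24 were higher in males (background 0.894%) and 130 in females (1.85%), and with centering on the members, 11 (0.389%) and 7 (0.0944%). The excess gave 251 and 547 for B6 alone, with backgrounds of 5.06% and 7.94%, and 355 and 531 for CAST alone, with backgrounds of 5.77% and 7.18%.

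Ranked by the smaller of its differences in the 2 strains, the first member was at Nt5e, the enzyme that converts extracellular AMP to adenosine (chr9:88222219-88222978, over its TSS). Its fold enrichments were 3.30, 5.16, 4.49 and 7.99, so that both female values were above both male values. The centred log2 ratio of male to female was −1.07 in B6 (counting interval −1.57 to −0.58) and −1.09 in CAST (−1.54 to −0.65), and by the excess of pileup over background it was −2.31 and −1.91. The other 4 members named as higher in females were weak ones. They were at Ier3, an early response gene (−0.77 and −0.75), at Mme, which encodes the peptidase neprilysin (−0.70 and −0.67, and −1.44 and −1.25 by the excess), at the lipid droplet gene Plin2 (−0.66 and −0.86) and at the sorting nexin gene Snx21 (−0.64 and −0.82). Their summits held 27 to 81 fragments, and the intervals of Ier3 and Mme in CAST included 0.

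Of the 9 members higher in males, 5 overlapped a TSS, but of the 5 named ones, which had the highest ratios in the strain where they were lower, 4 lay away from it. Casr, the calcium-sensing receptor, had a member 1513 bp from its TSS, in an intron, with 6.47, 2.75, 7.65 and 3.10 (chr16:36559570-36560179). Its log2 ratio was 0.81 in B6 (0.29 to 1.37) and 1.04 in CAST (0.46 to 1.67). The cytochrome P450 gene Cyp2c50 had one 745 bp from its TSS, with 8.07, 3.55, 7.28 and 3.13 (chr19:40162928-40163433) and log2 ratios of 0.76 (0.29 to 1.26) and 0.95 (0.33 to 1.62). Golph3l, which encodes a Golgi protein, had the member that overlapped its TSS, with 7.07, 3.08, 7.74 and 3.80 (chr3:95392232-95393296) and ratios of 0.78 and 0.76. Lrig1, a regulator of growth factor receptors, had 0.69 and 0.82, and Ncoa5, a nuclear receptor coactivator, had 1.20 and 0.65 (1.90 and 1.18 by the excess). None of these 5 members was CpG-rich, and of the 18 as a whole 5 were.

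A list of 25 genes with examples of sex bias was also examined. It was drawn from those that the study shows, some picked on these samples and others known before, so it is not independent evidence of a direction. Members were found for 13 of the 25 (52.0%, 33.5 to 70.0), near the 45.0% of all protein-coding genes. Another 7 had a DHS in 1 to 3 lists and 5 had none. Nt5e was the single one of the 13 past the limit in both strains. The strongest members were at Trim24, a transcription cofactor, with 9.36, 7.08, 9.60 and 8.14, and at Bcl6, a transcriptional repressor, with 8.67, 8.03, 7.66 and 9.65. Their male to female log2 ratios were −0.02 and −0.03 for Trim24 and −0.31 and −0.60 for Bcl6, which was past the limit in CAST alone. The weakest was at Tox, with 2.02, 3.06, 3.18 and 3.19, and its ratios were −1.02 in B6 and −0.27 in CAST, past the limit in B6 alone.

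The strains were compared within each sex in the same way. More members were past the limit than between the sexes, but 96.0% were within it in males and 94.8% in females. In males, 181 members were higher in B6 (1.90%, against 2.76% of all regions in all 4 lists) and 196 were higher in CAST (2.06%, against 5.52%). In females, 300 were higher in B6 (3.15%, against 3.42%) and 194 were higher in CAST (2.04%, against 4.97%). The standard deviation over members was 0.27 in males, where counting error gives 0.16, and 0.29 in females, where it gives 0.24. Centered on the members, males gave 135 (2.29%) and 233 (6.23%), and females gave 210 (2.57%) and 261 (6.18%), with the backgrounds of that setting in parentheses. With the excess of the pileup over background, males gave 621 (8.19%) and 644 (13.6%), and females gave 1005 (10.8%) and 654 (12.8%).

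Members past the limit in both sexes numbered 49 for B6 (0.51%, against 0.883%) and 62 for CAST (0.65%, against 2.17%), and none had opposite directions in males and females. With the excess of the pileup over background the counts were 239 (background 3.43%) and 248 (6.33%), and with centering on the members they were 34 (0.711%) and 78 (2.59%). Of the 49 and 62 members, 38 and 32 overlapped a TSS and 22 and 19 were CpG-rich. Under each of these 3 settings the share of members higher in CAST in both sexes was below that of all regions in all 4 lists.

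Ranked in the same way, the first strain difference was at Svip, which encodes an inhibitor of protein degradation at the endoplasmic reticulum (chr7:59260946-59262029). Its fold enrichments were 9.70, 7.24, 2.75 and 2.89, and its centred log2 ratio of B6 to CAST was 1.90 in males (1.44 to 2.4) and 1.57 in females (0.97 to 2.24). By the excess of pileup over background these ratios were 3.51 and 2.90. The summit held 351 and 188 fragments in B6 and 42 and 25 in CAST. Haus4, a subunit of the augmin complex of the spindle, had 9.75, 7.01, 5.0 and 3.58, with ratios of 1.05 and 1.22. Both B6 values were above both CAST values in each case. The other 3 of the 5 named members higher in B6 were at Rab23, a small GTPase, with 7.82, 5.75, 3.34 and 3.23, at Psen2, a catalytic subunit of γ-secretase, with 4.46, 4.59, 2.17 and 2.49, and at Klhdc7a, with 6.80, 5.23, 3.36 and 3.25. By the excess measure the ratios in males and females were 1.89 and 1.98 for Haus4, 1.95 and 1.79 for Rab23 and 2.39 and 2.21 for Psen2. Of these 5 members, 4 overlapped a TSS.

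In the other direction, Dcaf4, a substrate receptor of a ubiquitin ligase, had 5.79, 3.06, 13.7 and 10.5 over its TSS (chr12:84861011-84861947). Its log2 ratio was −1.16 in males (−1.48 to −0.84) and −1.53 in females (−2.05 to −1.04). Pde6a, the phosphodiesterase of rod cells, had a member in an intron, 1628 bp from a TSS, with 4.40, 2.95, 15.01 and 10.03, and ratios of −1.69 (−2.08 to −1.31) and −1.52 (−2.06 to −1.0). By the excess measure the ratios were −2.01 and −2.40 for Dcaf4 and −2.43 and −2.16 for Pde6a. At both members each CAST value was above each B6 value. Further members were 355 and 2266 bp from a TSS, at the lens and neuronal factor gene Pitx3 and at Tpst1, which encodes a sulfotransferase, with ratios between −1.14 and −1.16. For Tpst1 they were −2.11 and −2.09 by the excess.

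For each direction of the sex and the strain difference, the promoter of the member with the largest difference among those that overlapped a TSS is shown, ranked by the smaller of its 2 ratios, as the 150 bases before the TSS in the B6 reference on the strand of the gene. They were Nt5e (chr9:88222297-88222446, plus strand), Golph3l (chr3:95392731-95392880, plus strand), Svip (chr7:59261389-59261538, minus strand) and Dcaf4 (chr12:84861266-84861415, plus strand), and capitals mark motif matches.
Nt5e: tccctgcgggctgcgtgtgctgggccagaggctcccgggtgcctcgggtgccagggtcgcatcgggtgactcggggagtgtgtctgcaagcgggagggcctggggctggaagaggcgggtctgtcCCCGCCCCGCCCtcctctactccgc
Golph3l: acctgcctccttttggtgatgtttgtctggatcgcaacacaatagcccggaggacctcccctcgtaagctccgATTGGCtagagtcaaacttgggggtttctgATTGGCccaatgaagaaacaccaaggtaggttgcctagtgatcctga
Svip: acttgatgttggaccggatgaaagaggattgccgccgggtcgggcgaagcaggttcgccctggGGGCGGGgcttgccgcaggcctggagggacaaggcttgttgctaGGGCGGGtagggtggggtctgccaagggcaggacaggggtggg
Dcaf4: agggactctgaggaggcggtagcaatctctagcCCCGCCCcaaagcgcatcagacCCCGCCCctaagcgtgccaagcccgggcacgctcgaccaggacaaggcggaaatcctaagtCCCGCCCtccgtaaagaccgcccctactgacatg

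The Nt5e stretch held 2 overlapping GC boxes at 25 and 20 bases before the TSS, read on the opposite strand. Golph3l, whose stretch had 4 CpG dinucleotides, held 2 CCAAT boxes on the opposite strand, and Svip and Dcaf4 held 2 and 3 GC boxes. The Golph3l window was not CpG-rich, and that of Svip missed the definition, with a CpG ratio of 0.595. The letters of CAST at these positions were not examined, and nothing is drawn from them on the difference between the strains.

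**Figure D5:**
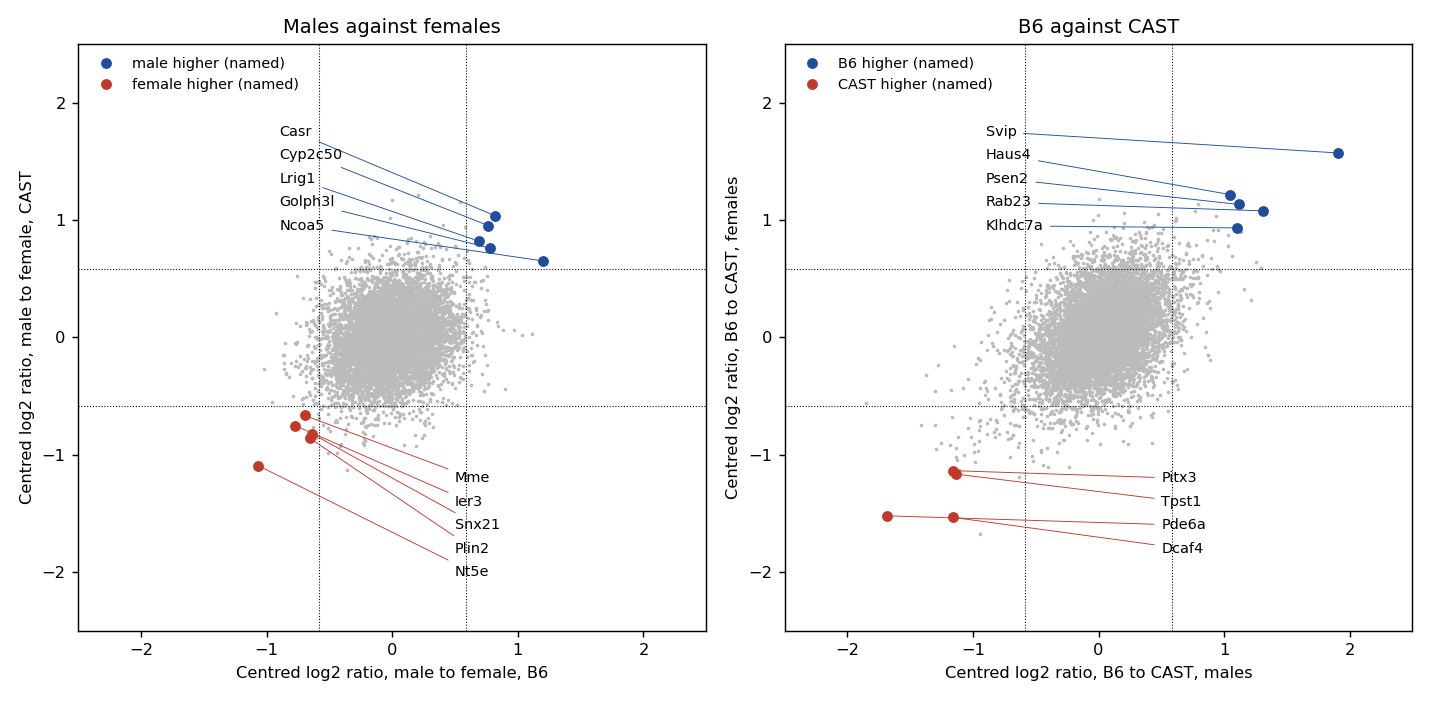
Centred log2 ratios of fold enrichment of all 9529 members, with 1 grey point each, for male to female in B6 and in CAST (left) and for B6 to CAST in males and in females (right); colored points are the named members and dotted lines mark 1.5-fold. Nt5e lies at −1.07 and −1.09 and Svip at 1.90 and 1.57, outside the central cloud.

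CpG-poor members differed between the lists more often than CpG-rich ones. In males, 8.17% (7.16 to 9.30) of CpG-poor and 2.45% (2.11 to 2.84) of CpG-rich members were past the limit in either direction between the strains, and in females the shares were 7.77% and 4.26%. Between the sexes they were 4.06% and 1.24% in B6, and 4.22% and 2.05% in CAST. Distal regions had the highest shares in each contrast, for example 13.1% (12.4 to 13.9) between the strains in males. CpG-poor members that overlapped a TSS had 5.75% (4.66 to 7.09) there. The counting error of CpG-poor members was slightly larger, at 0.17 against 0.16 for B6 to CAST in males, where the standard deviations were 0.34 and 0.24.

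Depth was matched by grouping regions on the sum of their fragments in both lists compared. Between the strains in males, 0.74% (0.44 to 1.24) of members and 5.57% (4.29 to 7.22) of distal regions with at least 600 fragments were past the limit. With 300 to 599 fragments the shares were 3.72% and 12.3%, with 150 to 299 they were 4.91% and 15.5%, and with fewer than 150 they were 8.89% and 13.6%. Between the sexes in B6 the shares with 300 to 599 fragments were 0.54% and 3.56%, and with at least 600 they were 0.00% (0 of 1032, Wilson upper bound 0.37%) and 0.77%. The share of members was below that of distal regions in each of the groups given so far, but not in all of the groups by sex in CAST. There the shares were 0.70% and 2.54% with 300 to 599 fragments, and 0.27% (2 of 732) and 0.24% (1 of 424) with at least 600.

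The limit of 2500 bp fell where few regions lay. In the last 100 bp inside it there were 43 members and in the first 100 bp outside it 42 regions found in all 4 lists. The members nearest to it were at Hip1r (2500 bp), Qsox1 (2499 bp) and Ddx58 (2496 bp), with fold enrichments in Male_B6 of 4.54, 4.39 and 10.3. The regions just outside were near Hpd (2503 bp), Rpl27a-ps1 (2504 bp) and Rhbdf2 (2505 bp), with 2.38, 5.73 and 3.46.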

How the data were processed

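DNase-seq was measured in liver of 4 groups of 4 libraries. Per the study's methods, the authors mapped uniquely placed reads with Bowtie2, B6 reads to mm9 and CAST reads to a copy of mm9 carrying known CAST variants, whose coordinates were brought back to mm9. They pooled the libraries of a group, called peaks with MACS2 and removed blacklisted regions and peaks of duplicated reads. Pooling leaves no replicate error, and a peak is listed only past the caller's threshold, so a deeper list holds weaker DHS. Reads on CAST variants missing from the edited genome would lower CAST values.

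The deposited lists gave, per peak, the fold enrichment over local background (a ratio with a pseudocount of 1), the −log10 p-value, the −log10 q-value and the summit, on which the following was computed. The strongest peak of each list stood for a region. Summit pileups and backgrounds were recovered from the fold enrichment and the p-value, and were whole within 0.02 for 99.9% of Male_B6 peaks and more in the other lists. Depth was therefore known only in these units. Log2 ratios of fold enrichment were centered on the median of all regions in all 4 lists. TSSs and mm9 sequence came from the reference annotation and genome, with 67114 start sites of 21418 autosomal protein-coding genes. Chromosome X was not analysed here. Shares have 95% Wilson intervals, and log2 ratios have 95% intervals from counting error. Python 3.11.15, pandas 2.3.3, numpy 2.4.6, scipy 1.17.1 and minimap2 2.31-r1302 (second matches of at least 90% identity over 80% of 500 bp) were used. Joining, distances, pileup recovery and the 1.5-fold calls were tested on simulated data.

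The members, gene lists and motifs were chosen with earlier results of these data known. The genes named in the text were, in each gene list, up to 2 with the highest and 1 with the lowest mean log2 fold enrichment of their strongest member; the 10 members with the highest lowest-percentile over the lists; the 5 per direction with the largest smaller-of-both difference for sex and for strain; the 3 members nearest inside and the 3 regions nearest outside the limit; the 5 widest; and fixed genes, Alb, Apoa1, Hnf4a, Foxa2, Cebpa, Actb, Gapdh, Rplp0 and Polr2a. Genes named because a count was small, and the promoters printed, were chosen after their values were seen. Some items named by these rules are not reported here.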

Additional observations from a re-analysis of the deposited data

How the results depend on the processing

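Of 120 values recomputed, 62 moved out of their interval, or past 1.5 times for counts, and 58 stayed within. Each named sex or strain difference also kept its direction with the excess measure and with the other centering. That does not test them, because they were picked as the largest differences in these same values. The excess uses the same pileups, and centering on the members shifts a ratio by 0.05 or less. Alternatives of the planned set covered joining, threshold, list size, promoter limit, distance measure, window, fold limit, measure and centering. The further ones, which leave out the 34 members of high background or with copies and which keep regions whose fragments sum to at least 300, were chosen after seeing the data. Keeping only peaks at or above the median −log10 q of 15.7 gave 5394 members, which were 63.2% of the regions in all lists. They served 6069 genes, 55 of them among the 97 genes of the liver lists. The main setting gave 83 of these 97, which include the 25 sex-biased example genes. The share of members was 54.6% with lists of equal size, 48.9% with a limit of 1000 bp and 51.8% with the summit as the point of distance. Of the 4 markers of other liver cells with a member, 1 was left with an overlap of 50% of both peaks and 1 with the stricter threshold. Of the 4 genes of other tissues, 2 were left under each of these, with the 1000 bp limit and with distance from the summit. The ratio of the median strength of members to that of distal regions, 1.19, 1.23, 1.10 and 1.14 in the order Male_B6, Female_B6, Male_CAST and Female_CAST, was 1.33, 1.34, 1.19 and 1.22 for pileup over the genome-wide background and 1.24, 1.27, 1.14 and 1.17 with the 1000 bp limit. With lists of equal size it was 1.16 in Male_B6, 1.08 in Male_CAST and 1.11 in Female_CAST. The CpG-rich share was 70.8% over whole regions and 78.8% with the 1000 bp limit. Over whole regions, which are longer in members, the difference of members from distal regions in the share with a motif had the same direction for all 13 motifs but moved for 10. In percentage points it went from −7.61 to −15.95 for TATAAA, from 9.48 to 20.7 for the CTCF core, from 2.91 to 7.29 for the E-box, from 14.7 to 24.4 for ETS, from 13.2 to 20.2 for NRF1, from 3.56 to 6.13 for YY1, from 2.32 to 3.74 for CREB and from −1.73 to −2.79 for HNF4A.

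For the sex and strain differences, counts higher in males and in females are given for B6, then CAST, then both, and counts higher in B6 and in CAST for males, then females, then both. Shares over all regions in all 4 lists follow in the same order. A 2-fold limit gave 3 and 2, 5 and 2, 0 and 1 by sex (all regions 0.150% and 0.0333%, 0.178% and 0.0389%, 0.0111% and 0.00556%), and 14 and 27, 12 and 16, 4 and 7 by strain (0.344% and 1.11%, 0.306% and 0.767%, 0.122% and 0.356%). The excess of pileup over background gave 251 and 547, 355 and 531, 24 and 130 by sex (5.06% and 7.94%, 5.77% and 7.18%, 0.894% and 1.85%), and 621 and 644, 1005 and 654, 239 and 248 by strain (8.19% and 13.6%, 10.8% and 12.8%, 3.43% and 6.33%). Fragments summing to at least 300 left 11 and 4, 10 and 9, 0 and 0 by sex (1.07% and 0.239%, 0.833% and 0.329%, 0.0666% and 0.0444% of the regions with as many fragments), and 62 and 79, 17 and 5, 3 and 0 by strain (1.86% and 3.93%, 1.28% and 1.48%, 0.306% and 0.511%). Fewer regions were counted, and the share past the limit was also lower: in B6 by sex it was 0.39% of 3814 members with at least 300 fragments and 3.04% of the 5715 with fewer, in CAST 0.60% and 3.63%, and by strain 2.66% and 5.58% in males and 1.595% and 5.79% in females. Centering on the members moved the split by strain in males from 181 and 196 to 135 and 233, and in females from 300 and 194 to 210 and 261. For the excess measure and the stricter threshold the cause was not tested. Of 40 differences of named members, 23 left their counting interval with the excess measure and 0 with the other centering. No paired analysis was possible because each list was called on 4 pooled libraries, and for the same reason no library could be left out. The shallowest list, Female_CAST, with a median of 62 fragments at the summit of a member, limits what can be detected in CAST and between female lists.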

Other observations

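Promoter regions that were found in 3 of the 4 lists numbered 1653, and the list that lacked a peak was most often a female one. It was Female_CAST in 1064 regions (64.4%, Wilson interval 62.0 to 66.6), Female_B6 in 532 (32.2%), Male_B6 in 36 and Male_CAST in 21. Their median fold enrichment, in the lists that held them, was 3.0, 2.59, 3.14 and 3.02 in the order Male_B6, Female_B6, Male_CAST and Female_CAST, against 5.82, 4.30, 6.08 and 4.97 for members. For the 2974 promoter regions of a single list the medians were 2.30, 2.26, 2.35 and 2.67. Of these single-list regions, 1306 were in Male_B6, 1212 in Male_CAST, 275 in Female_B6 and 181 in Female_CAST. The lists with the fewest fragments at the summits were thus those most often lacking, and the part of depth in this order was not tested.

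The share of protein-coding genes with a member varied between chromosomes, from 35.0% of 2072 genes on chromosome 7 and 35.2% of 953 on chromosome 14 to 51.3% of 1653 on chromosome 11 and 52.3% of 1082 on chromosome 8. The large clusters of receptor genes, which nearly all lacked a member, are counted in these totals.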
